A study of Mus musculus with 6 samples.

Results

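Antisense genes named for the gene on the opposite strand, and those host genes, were followed in testes of mice lacking Teshl, a long non-coding RNA expressed there. Mouse nomenclature marks such a gene by adding os, for opposite strand, to the symbol of its host, as in Rab10os and Rab10. All symbols ending in os, os1, os2 or os3 were taken as members when the remaining stem was itself a symbol in the tables. This gave 178 os genes on 170 hosts, among 25165 gene symbols. Another 21 symbols with such an ending, such as Fos and Nanos2, had no stem in the tables and were not members.

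Total RNA from testes of C57BL/6 mice aged 8 weeks was sequenced in 6 libraries. There were 3 KO-titled libraries, for homozygous loss of the transcript NR_038002, and 3 WT-titled libraries. The genotype field of the labels contradicts the titles in all 6 libraries, giving wild type for those titled KO and NR_038002-/- for those titled WT, so libraries were grouped by title. The targeted gene 1700027A15Rik was at 0.385 FPKM, 0 and 0 in the KO-titled libraries, against 1028, 989 and 1081 FPKM in the WT-titled ones (log2 fold change -9.86, limma adjusted p = 2.91e-08), which goes with the titles. FPKM values are corrected for transcript length and sequencing depth, so levels can be compared between genes. From the steps between the lowest values, read as FPKM, each library was estimated to hold 27900000 to 39400000 fragments. By this estimate 3 fragments on 1 kb are worth 0.0762 to 0.108 FPKM (counting error only). Correlations of log2 values were 0.991 to 0.993 within KO-titled testes, 0.989 to 0.992 within WT-titled testes and 0.981 to 0.991 between groups. All 15 markers of spermatocytes, round spermatids and elongating spermatids were above 0 in every library, as were the 5 of spermatogonia. The 5 elongating spermatid markers summed to 31000 to 33000 FPKM in KO-titled testes and 25900 to 29700 FPKM in WT-titled testes, and the 5 spermatogonial markers to 372 to 382 FPKM in KO-titled and 406 to 416 FPKM in WT-titled libraries. None of these markers passed limma's threshold, and their part in the results below was not tested. In RNA of whole testis, fewer cells of a type and less RNA per cell cannot be told apart.

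Antisense transcripts are made from the strand opposite another gene. Some start beside the start of the host and run away from it, some cross its exons, and some lie inside one of its introns. A few are well studied in other tissues: Uchl1os raises translation of Uchl1 mRNA in mouse neurons, Dlx6os1 acts in forebrain interneurons, Dnm3os carries microRNAs, and Oip5os1 is the conserved transcript also called Cyrano. The testis is known for broad transcription of long non-coding genes, above all in meiotic and post-meiotic germ cells.

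GENCODE M21 (GRCm38, the assembly of mm10) placed 168 of the 178 os genes, and all 168 lay on the strand opposite the host. Of these, 53 lay within the host, 51 crossed its start, 20 crossed its end, 7 spanned it, and 37 did not overlap it. Among those without overlap, 29 began beside the host's start and 8 lay beyond its end. Exons of 89 os genes overlapped exons of the host, while 42 overlapped the host gene without sharing exon sequence. RefSeq lists 12 os genes as protein-coding, 160 as lncRNA, 4 as antisense RNA and 2 as transcribed pseudogenes.

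A pair of os genes passed the test between the groups given below, both of them noncoding. The RefSeq promoter sequences of both (GRCm38.p6) are given as a description, and no later comparison uses these sequences. Each runs from 250 bases before the RefSeq start to 50 bases after it, read on the gene's own strand. Capitals mark TGACGT or its reverse complement ACGTCA, the half-site of the cyclic AMP response element that CREM, an activator of spermatid genes, binds. The Rab10os window is chr12:3235541-3235840 on the plus strand, and since RefSeq starts this gene farther downstream than GENCODE does, it lies wholly inside the GENCODE gene. The Grip1os1 window is chr10:119852341-119852640 on the minus strand.
Rab10os: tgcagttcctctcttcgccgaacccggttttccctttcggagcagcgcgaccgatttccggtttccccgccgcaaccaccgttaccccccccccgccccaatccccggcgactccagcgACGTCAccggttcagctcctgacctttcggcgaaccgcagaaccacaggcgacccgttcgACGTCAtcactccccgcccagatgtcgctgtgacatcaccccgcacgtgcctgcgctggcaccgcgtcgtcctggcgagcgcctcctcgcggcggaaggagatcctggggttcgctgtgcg
Grip1os1: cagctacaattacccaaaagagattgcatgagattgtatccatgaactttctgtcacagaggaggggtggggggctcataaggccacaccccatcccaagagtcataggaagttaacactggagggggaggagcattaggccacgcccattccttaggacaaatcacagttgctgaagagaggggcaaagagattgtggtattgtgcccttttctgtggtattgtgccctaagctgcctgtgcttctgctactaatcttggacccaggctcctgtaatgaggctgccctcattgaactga
The Rab10os window held 39 CG dinucleotides and the Grip1os1 window held 1, against a median of 7 over 32851 RefSeq promoter windows of the same length. The half-site occurred 2 times in the Rab10os window and 0 times in that of Grip1os1, and 7.51% of all windows held at least 1. A match is a description of the letters only, and the motif was chosen after the sequences had been seen.

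The os genes spanned a wide range of levels. A value above 0 in all 6 libraries was found for 88 of the 178, a value of 0 in 1 to 5 libraries for 33, and 57 (32.0%) were listed at 0 throughout. Among all symbols 15.7% were listed at 0 throughout. The limit for the test, a group mean of 1 FPKM or above in either group, was reached by 63 os genes, of which 24 had a mean of at least 10 FPKM. Their median level was 4.13 FPKM, beside 7.73 FPKM for the 107 hosts that reached the limit and 7.46 FPKM for all 12952 tested genes. The other 58 os genes with any value above 0 stayed under the limit.

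Among the 10 os genes with the highest means, 9 exceeded their host in every library. Cdiptos stood first at 540, 571 and 541 FPKM in KO-titled testes, against 485, 450 and 494 FPKM in WT-titled testes. Its host Cdipt encodes phosphatidylinositol synthase and was at 8.61, 10.04 and 10.3 FPKM in KO-titled testes and 7.69, 8.41 and 9.53 FPKM in WT-titled testes, so that the os gene's mean level was 56.4 times that of the host. The annotated starts of Cdiptos (chr7:126971722-126976098, minus strand) and Cdipt lie 184 bp apart and their exons overlap by 169 bp. Ccpg1os was at 110 ± 8.00 FPKM in KO-titled testes and 109 ± 4.11 FPKM in WT-titled testes (SD, n = 3 each), 3.05 times the level of Ccpg1, which encodes a receptor for autophagy of the endoplasmic reticulum. RefSeq lists both Cdiptos and Ccpg1os as protein-coding.

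The remaining 8 of these 10 are noncoding. Med9os, whose start lies 64 bp from that of the Mediator subunit gene Med9, was at 79.7 ± 8.93 FPKM in KO-titled testes and 80.9 ± 12.8 FPKM in WT-titled testes (SD, n = 3 each). Kcnmb4os1, at the gene of a potassium channel subunit, was at 68.4 ± 0.718 FPKM in KO-titled libraries and 65.0 ± 3.56 FPKM in WT-titled libraries. Frs3os (host Frs3, an adaptor of growth factor receptors), Lyzl4os (host Lyzl4, a lysozyme-like protein of sperm) and Dgkeos (host Dgke, a diacylglycerol kinase) had overall means of 39.4, 33.0 and 27.3 FPKM. Saxo1os had a mean of 34.1 ± 2.91 FPKM in KO-titled testes and 29.8 ± 1.04 FPKM in WT-titled testes (SD, n = 3 each), without overlap between groups (limma adjusted p = 0.276). It was the only one of the 10 not above its host in every library: Saxo1, which encodes a stabilizer of axonemal microtubules, lay above it at 34.7 to 45.4 FPKM.

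Several os genes were abundant while the host was listed near or at 0. Hoxd3os1 was at 39.1 ± 2.18 FPKM in KO-titled testes and 38.2 ± 2.48 FPKM in WT-titled testes (SD, n = 3 each), and Hoxd3, a homeobox transcription factor gene, was listed at 0 in all 6 libraries. This pair shares 347 bp of exon sequence, and the limits of such zeros are given below. Tmem132cos was at 30.8 ± 3.25 FPKM in KO-titled libraries and 28.4 ± 4.91 FPKM in WT-titled libraries, with Tmem132c, which encodes a membrane protein, at no more than 0.0650 FPKM in any library. Chosen after their values were seen, Gldnos had a mean level 126 times that of its host, Trpc5os 142 times and Gad1os 22.6 times. Their hosts encode gliomedin of the node of Ranvier, a cation channel of neurons and the enzyme that makes GABA. Over the 63 tested os genes, 29 were above the host in all 6 libraries, 28 below it in all 6, and 6 were mixed. The levels of the 52 pairs in which both genes were tested had a Pearson correlation of 0.0565 and a Spearman correlation of 0.126 on the log2(FPKM + 1) scale. These describe pairs of the same 6 libraries.

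**Figure D1:**
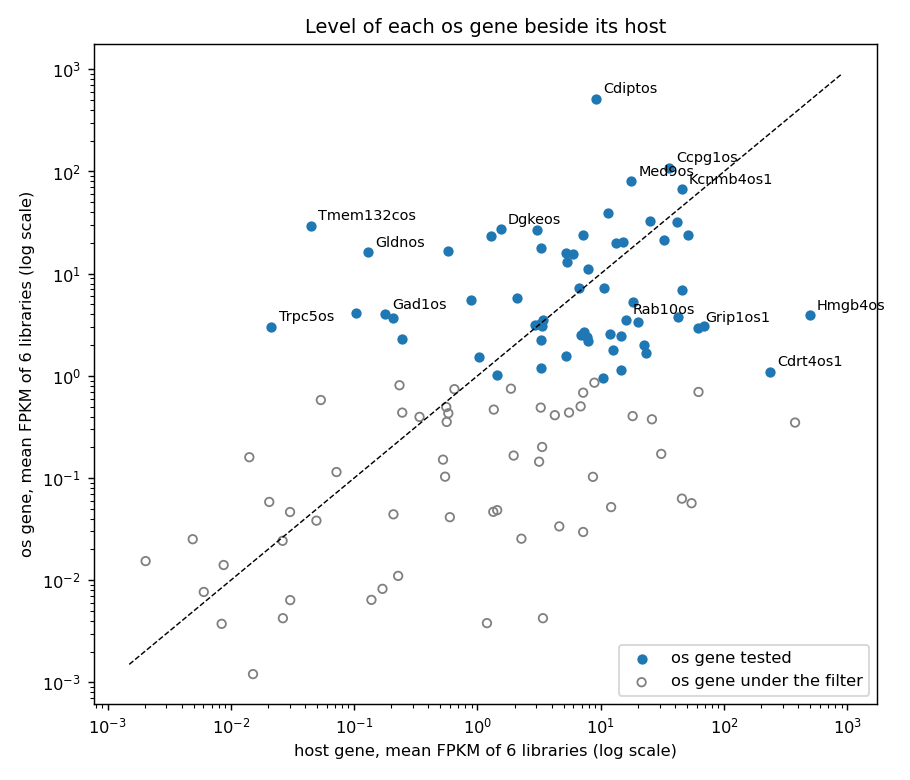
Mean FPKM of each os gene over 6 libraries against that of its host, both on log scales, for pairs in which both means are above 0. Filled points are os genes that were tested, open points those under the limit, and the dashed line marks equal levels. Cdiptos, Tmem132cos, Gldnos, Trpc5os and Gad1os lie far above the line, and Hmgb4os, Cdrt4os1 and Grip1os1 far below it.

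Listed zeros differed with the arrangement of the pair. Of the 89 os genes whose exons overlap those of the host, 47 (52.8%) were listed at 0 in all 6 libraries. The share was 7.14% (3 of 42) for os genes that overlap the host without sharing exons and 8.11% (3 of 37) for those without overlap. Of the 10 that GENCODE does not place, 4 were at 0. Long non-coding genes other than os genes had the same order of shares: 45.1% (229 of 508) with an exon overlap on the other strand and 10.6% (160 of 1504) with no exon overlap on either strand. For protein-coding genes other than os genes the shares lay close together, at 10.9% (340 of 3129) and 9.17% (1529 of 16677). Zeros also stood beside abundant hosts. Among 13 os genes at 0 whose host had a mean of at least 10 FPKM, 11 shared exon sequence with it and 2 were not placed. Asb17os was at 0 beside 169 FPKM of Asb17, a testis gene of a ubiquitin ligase family, Tomm6os beside 46.3 FPKM of Tomm6, a subunit of the mitochondrial import pore, and Uchl1os beside 26.2 FPKM of Uchl1. These examples were chosen after their values were seen. The libraries were made with a strand-marking kit, but no source used here says whether the authors' counting used strand, so reads from shared exons may not be separable. A listed 0, of an os gene or of a host such as Hoxd3, is therefore not a measure of absence. Levels and ratios of pairs that share exon sequence carry the same limit. The part of shared exons in the zeros was not tested.

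**Figure D2:**
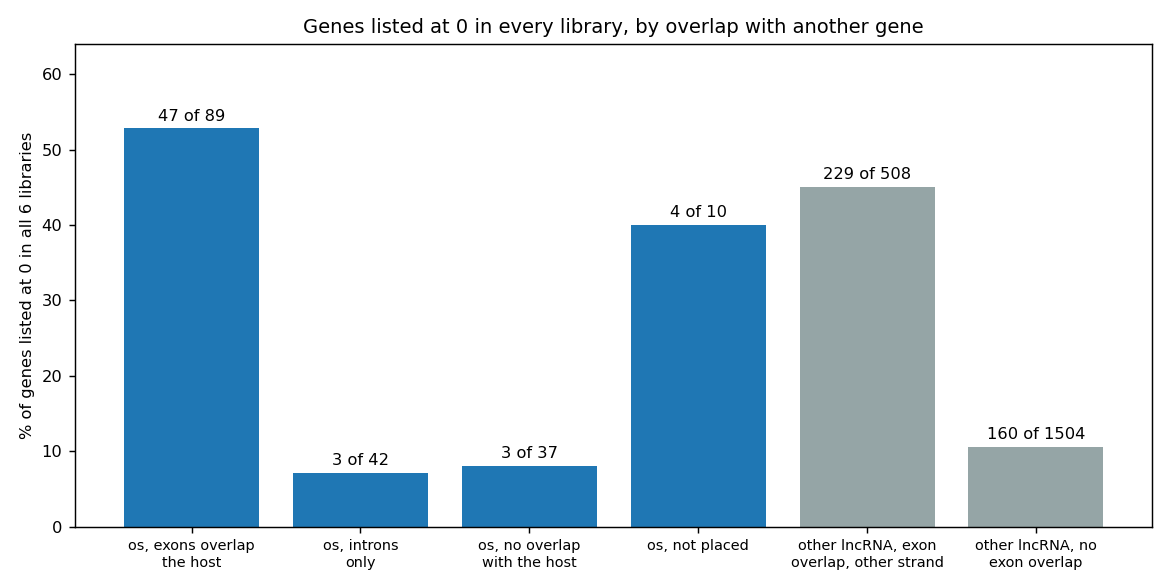
Share of genes listed at 0 in all 6 libraries, in percent, for os genes by their overlap with the host (blue) and for other long non-coding genes by exon overlap with any gene (grey), with counts above the bars. The share is 52.8% for os genes whose exons overlap the host and 7.14% and 8.11% for the next groups.

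In 5 os genes the listing changed between libraries, from 0 in at least 1 to a value of at least 1 FPKM in another. All 5 share exon sequence with the host. Among os genes with a library at 1 FPKM or more, 27 had an exon overlap with the host or another placed gene on the other strand. The 5 made up 18.5% of these 27, whereas 0 of the 37 without any exon overlap behaved in this way. The share was 7.81% over all placed os genes. With an exon overlap on the other strand it was 9.09% (14 of 154) for other long non-coding genes and 2.24% for all placed genes other than os genes, and over all placed genes other than os genes, with or without overlap, it was 1.02%. The host was higher on average wherever the os gene was at 0, by 1.15 to 1.28 times.

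Cebpzos, which encodes a small mitochondrial protein, crossed groups in this pattern. It was at 3.55, 3.78 and 0 FPKM in KO-titled testes and at 3.70, 0 and 3.98 FPKM in WT-titled testes. Cebpz, which encodes a CCAAT-binding factor, was at 6.39, 6.14 and 8.09 FPKM in KO-titled testes and 6.36, 8.09 and 6.35 FPKM in WT-titled testes. The 2 libraries with the os gene at 0, one of each group, were thus the 2 with the highest Cebpz, 1.28 times the mean of the other 4. The genes share 171 bp of exon sequence on chromosome 17. Tbc1d22bos was at 2.79, 2.61 and 3.24 FPKM in KO-titled testes and 2.81, 0 and 2.82 FPKM in WT-titled testes. Its host Tbc1d22b, a member of a family of Rab GTPase-activating proteins, reached its highest value of 8.67 FPKM in the library with the os gene at 0, and lay between 7.13 and 8.07 FPKM in the others.

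Speer4cos, a transcribed pseudogene, was at 1.29, 1.90 and 1.48 FPKM in KO-titled testes and 1.02, 0 and 0 FPKM in WT-titled testes. The libraries of the groups do not overlap, but the os gene did not pass (limma adjusted p = 0.256). Speer4c, of a multicopy family of testis genes, was at 7.73, 13.5 and 9.69 FPKM in KO-titled testes and 7.94, 11.1 and 12.8 FPKM in WT-titled testes. Speer genes are near copies, so the division of reads among them is uncertain. Speer4cos reached the limit for the test in KO-titled testes alone. It passed without WT-titled replicate 1, the library of that group with a value above 0 (limma adjusted p = 0.00169). That refit left only libraries at 0 in the WT-titled group, so it adds no support for a difference. Atcayos was at 1.14 and 1.24 FPKM in KO-titled replicates 1 and 2 and at 0 in the other 4 libraries, and its mean was under the limit for the test. The host Atcay, which encodes caytaxin of neurons, lay between 0.271 and 0.419 FPKM.

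**Figure D3:**
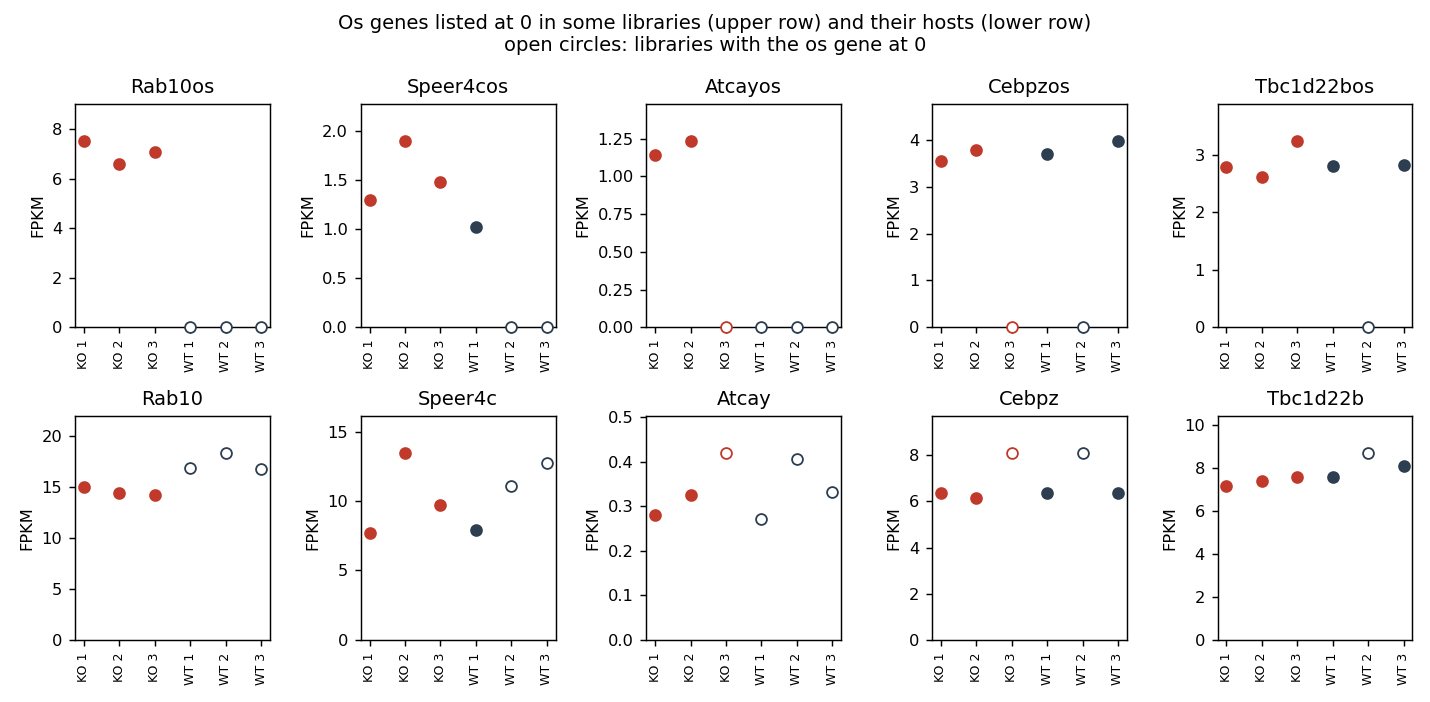
FPKM in each library of the 5 os genes listed at 0 in some libraries and at 1 FPKM or more in another (upper row) and of their hosts (lower row), with KO-titled libraries in red and WT-titled libraries in dark blue. Open circles mark libraries with the os gene at 0. Rab10, Cebpz and Tbc1d22b are highest in those libraries, and Speer4c and Atcay are not set apart.

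The groups were then compared to see which os genes and hosts changed with loss of Teshl. Of the 63 tested os genes, 2 were higher in KO-titled testes (3.17%) and 0 lower (limma, Benjamini-Hochberg FDR below 0.05, adjusted over all 12952 tested genes). Among all tested genes 0.788% were called higher and 0.363% lower, 1.15% together. The split of 102 higher to 47 lower calls became 121 to 33 with upper-quartile scaling and 85 to 28 with median-of-ratios scaling. At an unadjusted limma p under 0.05, 8 os genes were higher and 4 lower, 12 of 63, beside 14.3% of all tested genes (5.38% higher and 8.89% lower). Groups did not overlap in 12 of the 63, 9 of them higher and 3 lower, against 21.7% of all tested genes (5.92% higher and 15.8% lower), so that the share in either direction together lies near the background. The median log2 change of the tested os genes was 0.06 and that of all tested genes was -0.04. The limit for the test was reached in KO-titled testes alone by 3 os genes, Rab10os, Speer4cos and Fhitos, and in WT-titled testes alone by Map2k3os, so these medians and counts describe the tested os genes only.

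Rab10os was at 7.53, 6.62 and 7.06 FPKM in KO-titled testes and listed at 0 in all 3 WT-titled libraries (limma adjusted p = 2.91e-08). It was the only os gene with this pattern, and each KO-titled library lay above each WT-titled one. Rab10os (chr12:3235504-3250377, plus strand) runs into the end of Rab10, which encodes a small GTPase of membrane transport, and their exons share 143 bp. Rab10 was at 15.04, 14.5 and 14.2 FPKM in KO-titled testes, against 16.9, 18.3 and 16.8 FPKM in WT-titled testes, without overlap. Its log2 change was -0.24 (SE 0.06) and did not pass (limma adjusted p = 0.121). Rab10os was also the only os gene whose libraries and those of its host were set apart in opposite directions. It belongs to the 5 os genes whose listing changed between libraries, and the share of that in its difference was not tested.

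Grip1os1 was at 3.62, 4.05 and 3.85 FPKM in KO-titled testes, against 1.78, 1.88 and 2.65 FPKM in WT-titled testes. All KO-titled libraries lay above all WT-titled, the mean was 1.83-fold higher, and the log2 change was 0.65 (SE 0.10, limma adjusted p = 0.0193). The gene lies within Grip1 (chr10:119825204-119852390, minus strand), shares no exon sequence with it and is listed above 0 in every library. Grip1, which encodes a scaffold protein of glutamate receptors, was at 60.5, 62.0 and 61.2 FPKM in KO-titled testes and 63.4, 59.1 and 65.9 FPKM in WT-titled testes (log2 fold change -0.03, limma adjusted p = 0.767). Relative to its host, Grip1os1 was higher by 0.69 on the log2 scale in KO-titled testes, given as a description because the pair was named for its os gene's difference. The second os gene of the same host, Grip1os2, was at 0.654, 0.935 and 0.506 FPKM in KO-titled testes and 0.988, 0.458 and 0.633 FPKM in WT-titled testes and was under the limit for the test. The call of Grip1os1 ended without KO-titled replicate 2 (limma adjusted p = 0.0979), KO-titled replicate 3 (0.103), WT-titled replicate 1 (0.0885) or WT-titled replicate 2 (0.0763), and without a filter on low values (0.0695). Its log2 fold change over all settings at the same pseudocount was 0.58 to 0.77.

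**Figure D4:**
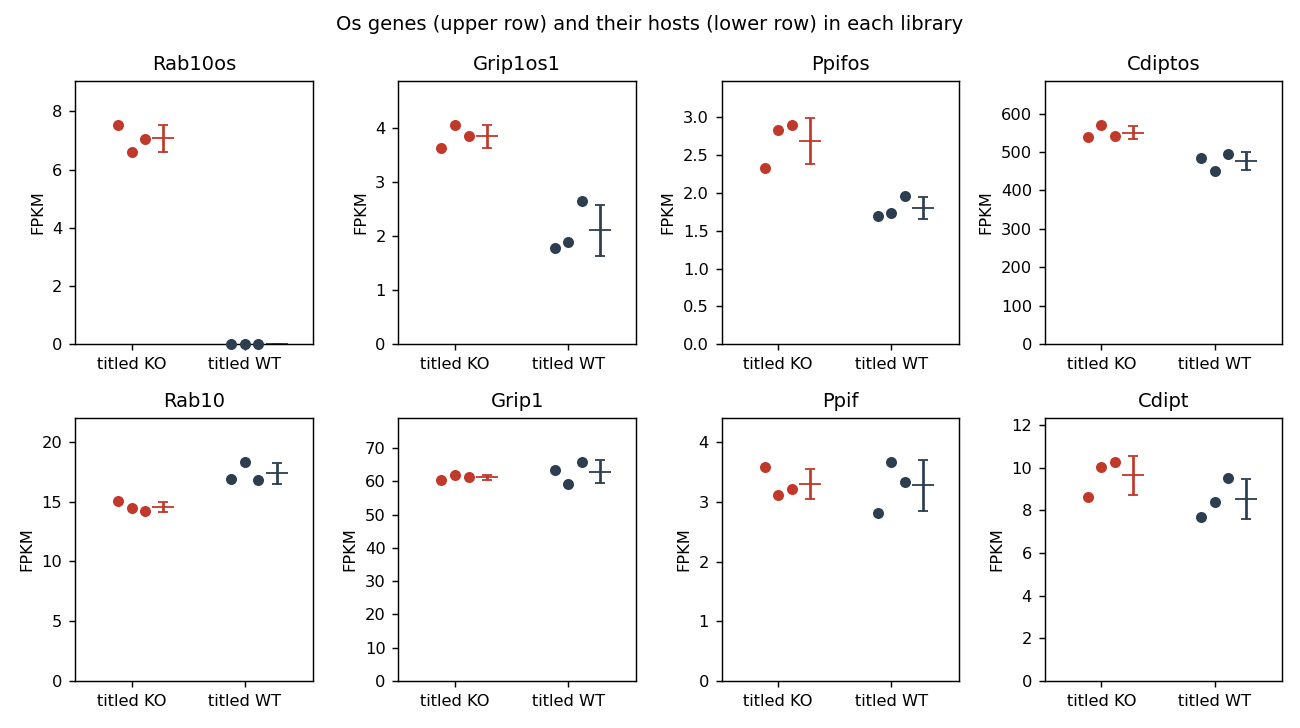
FPKM of Rab10os, Grip1os1, Ppifos and Cdiptos (upper row) and of their hosts (lower row) in each library, KO-titled ones in red and WT-titled ones in dark blue, with the mean and SD of 3 libraries beside the points. The 4 os genes have no overlap between groups, and of the hosts Rab10 alone has none.

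Of the os genes just short of the threshold, Ppifos came nearest. It was at 2.34, 2.83 and 2.90 FPKM in KO-titled testes and 1.70, 1.73 and 1.97 FPKM in WT-titled testes, with a log2 change of 0.40 (SE 0.08, limma adjusted p = 0.0650) and no overlap. Its exons share 921 bp with those of Ppif, the gene of cyclophilin D in mitochondria, which was at 3.31 ± 0.253 FPKM in KO-titled testes and 3.28 ± 0.433 FPKM in WT-titled testes (SD, n = 3 each). Ppifos passed with upper-quartile scaling (limma adjusted p = 0.0400), with equal library totals (0.0408), without KO-titled replicate 1 (0.0354) and without WT-titled replicate 3 (0.0434). Cdiptos had a log2 change of 0.21 (limma adjusted p = 0.114), with all KO-titled libraries above all WT-titled. Its host Cdipt had 0.16 (limma adjusted p = 0.425), with overlap.

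Of the 8 largest positive values, those of Tbc1d22bos, Prkag2os1, Pitpnm2os1 and Kbtbd8os came with overlapping groups. Tbc1d22bos had a log2 change of 0.66 (limma adjusted p = 0.641), with a 0 in WT-titled replicate 2, without which it was 0.02 (limma adjusted p = 0.957). Prkag2os1, at the gene of a regulatory subunit of AMP-activated kinase, was at 4.32 ± 0.673 FPKM in KO-titled testes and 3.21 ± 0.893 FPKM in WT-titled testes (SD, n = 3 each; limma adjusted p = 0.381). Pitpnm2os1, at a phosphatidylinositol transfer protein gene, had a log2 change of 0.28 (limma adjusted p = 0.325), and Kbtbd8os, at the gene of a ubiquitin ligase adaptor, had 0.26 (0.615). Their hosts Prkag2, Pitpnm2 and Kbtbd8 had -0.05, -0.13 and -0.07, none of which passed.

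Among the 8 os genes with the smallest values, none passed the threshold. St8sia3os, at a sialyltransferase gene, was at 1.44 ± 0.323 FPKM in KO-titled testes and 2.18 ± 0.455 FPKM in WT-titled testes (SD, n = 3 each; log2 fold change -0.38, limma adjusted p = 0.233). Smc2os, beside the condensin gene Smc2, was at 2.35 ± 0.302 FPKM in KO-titled libraries and 3.002 ± 0.362 FPKM in WT-titled libraries (log2 fold change -0.26, limma adjusted p = 0.266), without overlap. Wdr83os, which encodes a subunit of a complex for the insertion of membrane proteins, was at 14.2, 12.9 and 15.6 FPKM in KO-titled testes and 16.9, 17.0 and 17.4 FPKM in WT-titled testes. Its groups do not overlap, and its log2 change was -0.25 (limma adjusted p = 0.174), with 0.07 for Wdr83, a WD-repeat scaffold gene. Rsf1os1, at the gene of a chromatin remodelling factor, was at 24.4 ± 2.19 FPKM in KO-titled testes and 28.9 ± 1.47 FPKM in WT-titled testes (SD, n = 3 each; limma adjusted p = 0.194), also without overlap.

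The last 4 of the 8 had overlapping groups. Bloc1s6os lies at the gene of a subunit of a lysosome biogenesis complex, Map2k3os at a kinase gene of the p38 pathway, Atad3aos at a mitochondrial ATPase gene and Rab26os at a GTPase gene of vesicles. Their log2 fold changes were -0.23, -0.22, -0.18 and -0.13 (limma adjusted p = 0.401, 0.412, 0.540 and 0.799). Map2k3 was at 13.3, 13.6 and 13.5 FPKM in KO-titled testes and 15.3, 16.0 and 15.6 FPKM in WT-titled testes, without overlap, and its log2 change of -0.20 missed the threshold (limma adjusted p = 0.143).

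None of the protein-coding os genes was called, beside 1.15% of all tested genes. Of 12, 9 were tested, with log2 fold changes of -0.25 to 0.21. At an unadjusted limma p under 0.05, 1 was higher (Cdiptos) and 1 lower (Wdr83os), beside 5.38% and 8.89% of all tested genes. With 9 genes tested, these counts cannot be told apart from the shares over all genes. Slc7a6os, whose relative in yeast brings RNA polymerase II into the nucleus, was at 7.17 ± 0.451 FPKM in KO-titled testes and 7.38 ± 0.358 FPKM in WT-titled testes (SD, n = 3 each). Pigbos1, which encodes a mitochondrial microprotein, was at 8.85 ± 0.504 FPKM in KO-titled libraries and 8.45 ± 0.496 FPKM in WT-titled libraries, with its host Pigb, a gene of GPI anchor synthesis, listed at 0 throughout. Fancd2os was at 23.8 ± 1.85 FPKM in KO-titled libraries and 23.6 ± 1.34 FPKM in WT-titled libraries. Trpc5os was at 3.03 ± 0.0810 FPKM in KO-titled libraries and 3.003 ± 0.127 FPKM in WT-titled libraries.

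No host passed the threshold. Of 107 tested hosts, 0 were higher and 0 lower by limma, which lies near the 1.15% called over all tested genes. At an unadjusted limma p under 0.05, 4 were higher and 6 lower (9.35%, beside 14.3% of all tested genes). Hosts whose KO-titled libraries all lay below those WT-titled numbered 19 (17.8%), against 15.8% of all tested genes, and 2 were set apart in the other direction, against 5.92% of all tested genes. Uchl1, which encodes a deubiquitinase found in spermatogonia, had the smallest adjusted p of the hosts. It was at 22.5, 20.99 and 24.5 FPKM in KO-titled testes and 26.6, 30.0 and 32.9 FPKM in WT-titled testes (log2 fold change -0.38, SE 0.09, limma adjusted p = 0.0864), passing with equal library totals (0.0483). The sum of the spermatogonial markers given above was lower in every KO-titled library, but no single marker was called. Any link between that sum and Uchl1 was not tested. Hmgb4, a testis gene of the high mobility group, was at 546 FPKM in KO-titled testes and 448 FPKM in WT-titled testes on average (limma adjusted p = 0.223), and passed without WT-titled replicate 3 (limma adjusted p = 0.0420).

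In the 52 pairs with both genes tested, the os gene and its host had the same sign in 24: both values were positive in 12 and both negative in 12. In 23 pairs the os gene had a positive and the host a negative value, and in 5 the reverse. Positive values were found for 44 of the 63 tested os genes and 39 of the 107 tested hosts, beside 4438 of all 12952 tested genes. The split of signs over pairs was not tested against these shares, so it is no measure of a relation within pairs. The log2 fold changes had a Pearson correlation of -0.21 and a Spearman correlation of 0.12 over these pairs. Over the 48 pairs whose os gene was above 0 in every library, which leaves out Rab10os, Cebpzos, Tbc1d22bos and Speer4cos, they were 0.19 and 0.26. The pairs share the same 6 libraries, so these are descriptions.

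**Figure D5:**
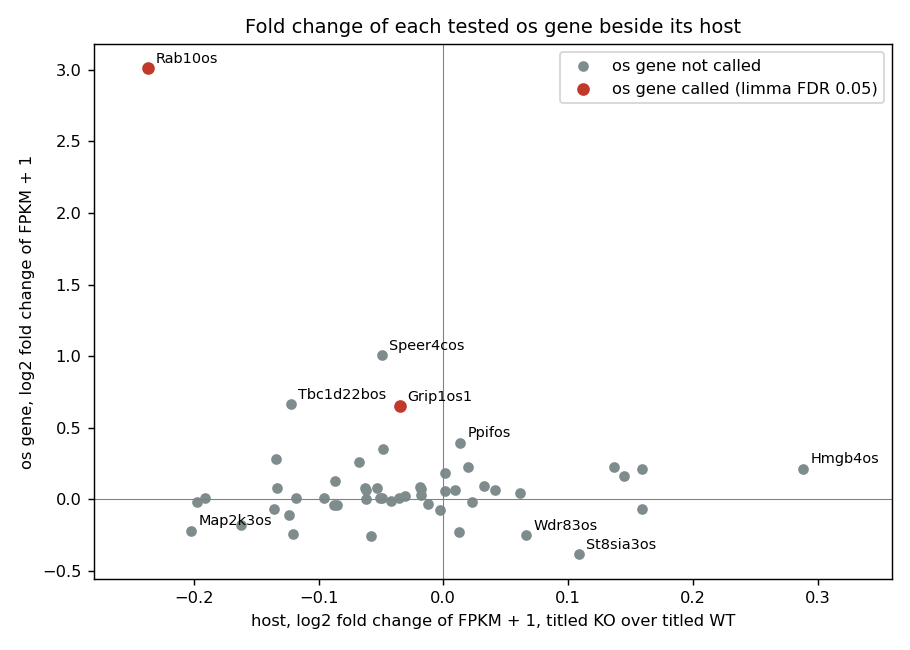
Log2 fold change of each os gene against that of its host, KO-titled over WT-titled on the log2(FPKM + 1) scale, for the 52 pairs with both genes tested. Red points mark the 2 called os genes, Rab10os and Grip1os1. Host values lie within about the same narrow band on both sides of 0, and Rab10os stands at 3.01 because it is listed at 0 in WT-titled testes, a value that depends on the pseudocount.

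A list of named antisense, overlapping or other long non-coding genes was set beside the os genes. Of 28 such symbols, 11 were tested, among them the coding genes Leprot and Hras, the latter a match by its letters alone. The 28 include Dlx6os1, which is also an os gene. Of the 11 tested, 1 was higher by limma and 0 lower, beside 1.15% of all tested genes called in either direction. At an unadjusted limma p under 0.05, 6 were higher and 0 lower, and 6 (54.5%) had no overlap between groups, all of them higher, against 21.7% of all tested genes. Meg3 and Snhg11 count in both sets of 6 but reached the limit for the test in KO-titled testes alone. Their means were 1.48 and 1.21 FPKM there, against 0.984 and 0.805 FPKM in WT-titled testes. These counts therefore describe the tested symbols only. Tug1, a nuclear and cytoplasmic long non-coding RNA needed for male fertility in mice, was at 14.1, 14.5 and 13.7 FPKM in KO-titled testes and 11.3, 11.4 and 11.5 FPKM in WT-titled testes (log2 fold change 0.28, SE 0.05, limma adjusted p = 0.0477). Its call was lost in 12 of 16 refits with another setting or without 1 library. Snhg1, which hosts small nucleolar RNAs, was at 5.55 ± 0.512 FPKM in KO-titled testes and 4.004 ± 0.508 FPKM in WT-titled testes (SD, n = 3 each; limma adjusted p = 0.0943). Of the 8 tested symbols ending in os without a host, 0 were called by limma, and 1 had an unadjusted p under 0.05.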

How the data were processed

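RNA was extracted with Trizol and libraries were made with the NEBNext Ultra II Directional kit, per the labels' protocols. The submitters' processing notes name HISAT2 and mm10. No source used here gives the quantifier, annotation or strand setting. Each library had 1 deposited table of symbols and values, taken as FPKM from the values. The values were taken as scaled by length and depth, which the estimate of fragments from the steps between low values also assumes. No further scaling was applied.

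Rows were summed per symbol; 333 symbols lay on 1078 rows, none of them an os gene or host. The scale was log2(FPKM + 1), and the test was limma 3.58.1 (R 4.3.3, trend and robust empirical Bayes) over 12952 genes whose mean reached 1 FPKM in either group, with Benjamini-Hochberg adjustment and a threshold of 0.05. This scale understates fold changes of low genes. On simulated libraries with these means and spreads (12809 genes), the test recovered 77% of 100 genes given a log2 change of 0.5 and 94% of 100 given 1, with 7 false calls among 178. The changed genes were drawn only from those above a cut on the mean level. Rab10os, Grip1os1 and Ppifos lie under this cut, so the recovered shares do not describe os genes at such low levels. Exact permutation tests of os genes relative to their hosts (SciPy 1.17.1) are not reported as results, since most pairs were named for the same difference. The labels do not state separate animals, so the p-values reflect spread among these libraries, possibly technical.

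Genes named by rule are the called os genes, the 10 highest, the 8 largest and 8 smallest fold changes, those at 0 throughout one group and at 1 FPKM or more throughout the other, their hosts, and the target. The other genes named, such as Cebpzos, Atcayos, Slc7a6os, Pigbos1, Fancd2os, Uchl1, Hmgb4, Tug1 and Snhg1, were chosen after their values were seen. The os genes and lists were chosen with earlier results of these data known. RefSeq promoter windows exist for 145 os genes. Overlaps come from GENCODE M21 exons of all transcripts, which need not be the authors' annotation. Alternatives were other pseudocounts, filters, scalings and thresholds, the replicate number as a block, estimation without the robust option, single-row symbols, and each library left out. Figures were drawn with matplotlib 3.10.9.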

Additional observations from a re-analysis of the deposited data

How the results depend on the processing

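Rab10os passed under each alternative that was run. The number of called os genes was 2 as reported. It was 1 without a filter, with the replicate block and at an FDR of 0.01. With upper-quartile scaling, with equal library totals and at an FDR of 0.10 it was 3, and without single libraries 1 to 3. Hosts called numbered 0 as reported, 1 with equal library totals, 1 at an FDR of 0.10, and 0 to 1 without single libraries. Over all genes the 149 calls became 88 without a filter, 50 with the replicate block, 274 at an FDR of 0.10, 57 at an FDR of 0.01, and 73 (without KO-titled replicate 2) to 233 (without WT-titled replicate 3) when single libraries were left out. Of the other antisense or overlapping genes, 1 was called as reported. It was 0 without a filter, with the filter at a mean of 0.5 FPKM, with equal library totals, without robust estimation, with the replicate block, for symbols on a single row and at an FDR of 0.01, 2 with upper-quartile scaling and at an FDR of 0.10, and 0 to 1 without single libraries. The target's log2 change was -14.89 with a pseudocount of 0.01 (limma adjusted p = 0.0644). The cause of these shifts was not tested, except that a lower limit tests more genes and a left-out library leaves fewer samples.

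Same-numbered libraries did not deviate together (correlations of 0.0647, -0.129 and 0.0614), so the numbers do not pair the libraries, and with the replicate block Grip1os1 was not called (limma adjusted p = 0.0569). Of 784 refits of the 49 named genes, 732 kept direction and side of the threshold, 41 turned direction, 6 lost the call and 5 gained it. All that turned were uncalled genes near 0. With median-of-ratios scaling the log2 change was 0.027 for Med9os, 0.0069 for Ccpg1, 0.023 for Dgke, 0.0090 for Frs3, 0.0079 for Grip1 and 0.025 for Kcnmb4. With upper-quartile scaling it was 0.014 for Med9os, 0.015 for Dgke and 0.012 for Kcnmb4, and with equal library totals -0.0023 for Ccpg1os and -0.012 for Saxo1. Without single libraries the range was -0.024 to 0.072 for Ccpg1os, -0.053 to 0.10 for Frs3os, -0.059 to 0.12 for Lyzl4os, -0.12 to 0.10 for Med9os and -0.29 to 0.11 for Rab26os. For hosts it was -0.015 to 0.045 for Bloc1s6, -0.045 to 0.036 for Dgke, -0.077 to 0.015 for Frs3, -0.077 to 0.00032 for Grip1, -0.048 to 0.033 for Kcnmb4, -0.039 to 0.14 for Lyzl4, -0.040 to 0.11 for Med9, -0.066 to 0.080 for Ppif, -0.12 to 0.068 for Saxo1 and -0.24 to 0.12 for Speer4c. Rab26os relative to its host was higher by 0.11 with a pseudocount of 0.1 and by 0.29 with 0.01. Values under about 0.1 FPKM rest on few fragments, and genes with such means in both groups were under the limit for the test.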
